A study of Rattus norvegicus with 12 samples.

Results

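The response of neonatal rat cardiac myocytes to doxorubicin was compared between cells with a normal and with a reduced amount of p300 RNA. For each gene, the change over 8 h of drug in cells given an siRNA against p300 was set against the change over the same 8 h in cells given a non-silencing siRNA (NS). The 2 changes were subtracted within each of 3 experiments, numbered by the biological replicate number in the labels, so that every gene has 3 values of what is called the response difference here (p300 siRNA minus NS). All 12 arrays of the series enter it, and all 14507 genes with an unambiguous annotation were compared. The 4 groups of 3 arrays were NS siRNA at 0 h, NS siRNA at 8 h, p300 siRNA at 0 h and p300 siRNA at 8 h. All came from primary cultures of cardiac myocytes from neonatal Sprague Dawley rats, labelled as over 90% myocytes, grown with bromodeoxyuridine to hold back fibroblasts and kept without serum for 48 h before 1 µM doxorubicin. Both siRNA groups were transfected, so an untransfected state is not among them, and the 0 h cultures are the only untreated ones, so drug and time in culture cannot be told apart.

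Doxorubicin is an anthracycline cancer drug that binds DNA and traps topoisomerase II on it, and its use is limited by damage to the heart. p300, encoded by Ep300, is a lysine acetyltransferase that acetylates histones and transcription factors and serves as a coactivator. In the heart it works with Gata4, Mef2 factors and Srf, and in cells with DNA damage it acetylates p53. The comparison made here asks whether myocytes with less Ep300 RNA answer the drug with the same transcripts.

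Values are log2 of the array intensity, so a difference of 1 is a 2-fold change. Ep300 (probe set 10897919) checks the knockdown. It read 11.16, 11.01 and 11.14 in NS cells at 0 h and 10.86, 10.72 and 10.72 at 8 h. With the p300 siRNA it read 10.41, 10.02 and 10.05 at 0 h and 10.10, 9.64 and 9.80 at 8 h. Every p300 siRNA array was below every NS array of its time, and the mean was lower by 0.95 at 0 h (limma, adjusted p = 2.71e-05) and by 0.92 at 8 h (adjusted p = 4.47e-05). The drug response of Ep300 itself was -0.34 in NS and -0.31 in p300 siRNA cells, a response difference of 0.03 (SE 0.104, 95% interval -0.20 to 0.25). The level with the p300 siRNA in experiment 1 was above that in experiments 2 and 3 at both times. The p300 protein is not among these data, and all comparisons below are at this partial loss of Ep300 RNA. Arrays of 1 experiment also varied together. Over the 18 pairs with 1 number in different groups, deviations from the group means had a median correlation across genes of 0.504. Other pairs had -0.271, which is no separate baseline, because the deviations of a group's 3 arrays sum to 0. The experiment was kept as a block in the model. The 12 cardiac myocyte markers averaged between 12.89 and 13.18 on every array, far above the median gene level of 8.57, and their median response difference was 0.00.

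No gene's doxorubicin response was shown to differ between the siRNAs. Of 14507 genes, 0 passed as more positive and 0 as more negative with the p300 siRNA (limma, Benjamini-Hochberg over all genes, adjusted p under 0.05; 0% called in either direction), and the smallest adjusted p was 0.902. At an unadjusted p under 0.05 there were 639 genes, or 4.4%, no more than this threshold passes on average where no response differs. The fit without the block called 0, with 228 genes (1.57%) at an unadjusted p under 0.05, and a fit to the 3 response differences alone called 0, with 697 (4.8%). The 3 experiments did not order the genes alike. Across genes, which are not independent replicates, the response differences of experiments 1 and 2 had a Pearson correlation of 0.014, those of 1 and 3 of 0.203, and those of 2 and 3 of -0.18. Their medians were -0.012, 0.01 and 0.018, and the spread across genes was an SD of 0.173, 0.222 and 0.227. A response difference of 1 sign in all 3 experiments was seen in 3768 genes (26%), near the share that 3 random signs would give.

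A missed threshold does not show equal responses, so each difference was also bounded. The median SE was 0.111, and the 95% interval reached a median of 0.237 to either side of the estimate. Responses were termed equal where the whole interval lay within 0.5 log2 (1.41-fold) of 0, which held for 13532 genes (93.3%). For 12575 genes the mean of the 2 responses was itself within 0.5 log2 or was not called. A response smaller than the margin could be lost and still be termed equal, so for such genes the term only bounds the difference. The interval lay wholly beyond that margin for 0 genes. An estimate larger than 0.5 in size was found for 10 genes, 2 above 0 and 8 below, and 8 of the 10 had a mean level under the median of all genes. Those 8 below 0 were Slfn4, a Schlafen family gene (-0.86), the GTPase gene Rrad (-0.79), the cytochrome P450 gene Cyp3a9 (-0.71), the galactosyltransferase gene B3galt2 (-0.68), the odorant receptor gene Or7g23 (-0.64), Vof16 (-0.63), C8h11orf87 (-0.61) and the ubiquitin ligase gene Herc6 (-0.54). The pair above 0 were the odorant receptor genes Or6c215 (0.61) and Or1ad1 (0.50). Single experiments carried some of these estimates. By experiment, the difference was 0.10, -1.92 and -0.05 for Vof16 (interval -1.24 to -0.01), -0.14, -0.19 and -1.50 for C8h11orf87 (-1.43 to 0.21) and -0.42, -1.17 and -0.05 for Herc6 (-0.94 to -0.15). All 10 were singled out by size after their values were seen.

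Genes that clearly answered the drug were picked by the mean of both responses, a quantity that is statistically independent of the response difference in this balanced layout. They number 263 (1.81% of genes tested, adjusted p under 0.05 and at least 1 log2), of which 51 rose and 212 fell. With no minimum size, 8121 genes (56%) passed for the average response. For the 263, the median response was -1.11 in NS and -1.14 in p300 siRNA cells. Across these genes the 2 responses had a Pearson correlation of 0.988, a value raised by pooling rises with falls. It was 0.748 among the 51 rises and 0.906 among the 212 falls. That 0 of 263 had responses of opposite sign follows from the choice by a large average response, so it says little about likeness. The responses were equal within the margin for 205 (77.9%), below the 93.3% of all genes. The response difference of these genes had a median SE of 0.125, against 0.111 over all genes. Of the other 58, the interval of 37 included 0, and 1 interval reached beyond 1 log2. The response difference of the 263 had a median size of 0.117, was under 0.285 in 90% and was at most 0.79. Over all genes these values were 0.0767, 0.193 and 0.86, so the median size was larger among the 263.

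By direction, 37 of the 51 rises (72.5%) and 168 of the 212 falls (79.2%) were equal within the margin. The median rise was 1.23 in NS and 1.33 in p300 siRNA cells, and the median of the falls was -1.16 and -1.21. The estimate was the larger in size with the p300 siRNA for 170 genes and the smaller for 93, or 64.6% larger, against 56.9% of all genes. The median response difference, signed so that positive means a larger response, was 0.051. It was -0.003 in experiment 1, -0.011 in experiment 2 and 0.138 in experiment 3, so for these genes a median lean towards larger responses was found in experiment 3 alone. Among genes with smaller average responses, of 0.5 to 1 log2, the signed median was 0.03, 0.057 and 0.031 by experiment for 1137 falls (65.8% larger) and 0.01, 0.056 and 0.147 for 532 rises (67.5% larger). Over all genes it was 0.01, 0.028 and 0.018. At an unadjusted p under 0.05 there were 26 of the 263 (9.89%), against 4.4% of all genes, and 0 passed after adjustment.

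**Figure D1:**
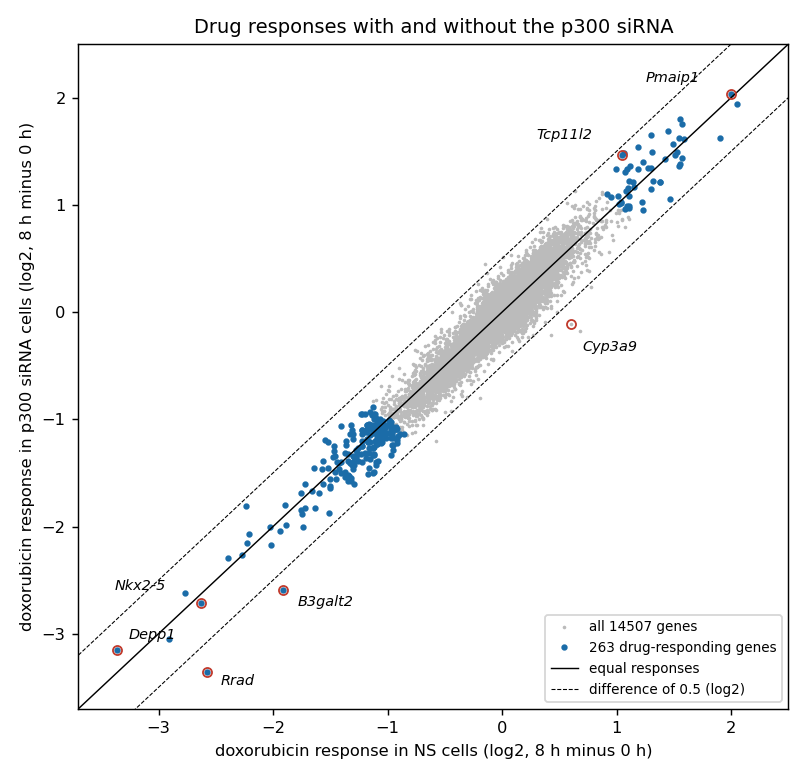
Each point is a gene, with its doxorubicin response (8 h minus 0 h, log2) in NS cells on the horizontal and in p300 siRNA cells on the vertical axis; blue points are the 263 drug-responding genes, the solid line marks equal responses and the dashed lines a difference of 0.5. Nkx2-5 and Pmaip1 lie on the line of equal responses, while Rrad and B3galt2 are the blue points below the dashed line.

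The 8 largest falls were taken among genes whose highest group mean was above the median gene level, and they include regulators and structural genes of the myocyte. Nkx2-5, the homeodomain factor of heart muscle, read 11.89, 12 and 11.98 in NS cells at 0 h and 9.51, 9.15 and 9.31 at 8 h. In p300 siRNA cells it read 11.89, 11.88 and 12.06 at 0 h and 9.11, 9.37 and 9.22 at 8 h. The siRNA groups overlapped at both times, and the responses were -2.63 and -2.71 (response difference -0.08, interval -0.35 to 0.20). Gata5, a zinc finger factor of heart development, had responses of -2.39 and -2.29 (interval of the difference -0.13 to 0.35). Lmod2, which lengthens the thin filaments of the sarcomere, had -2.91 and -3.05 (interval -0.44 to 0.17). The cyclin F gene Ccnf had -2.27 in both (interval -0.29 to 0.29). All 4 were equal within the margin.

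Less tightly bounded were Depp1, a FOXO target linked to autophagy, and Lrrc10, a leucine-rich repeat protein of the sarcomere. Depp1 had the largest average fall, from 9.54, 9.89 and 10.05 to 6.72, 6.16 and 6.53 in NS cells and from 9.19, 9.51 and 9.79 to 6.39, 6.44 and 6.21 in p300 siRNA cells. Its responses of -3.36 and -3.15 differed by 0.21 (interval -0.26 to 0.68). Those of Lrrc10 were -2.77 and -2.62, and its difference of 0.15 had an interval from -0.46 to 0.75. The narrowest intervals among equal falls belonged to Trib2, a pseudokinase gene (-1.72 and -1.83), H4c14, a histone H4 gene (-1.30 and -1.46), Pkp2, which encodes the desmosomal plakophilin 2 (-1.03 and -1.13), and Spry1, a feedback inhibitor of receptor tyrosine kinase signalling (-0.89 and -1.14). The probe set of H4c14 may share sequence with other near-identical histone H4 genes.

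Rrad and B3galt2 departed most from equality among the strong falls. Rrad encodes an RGK GTPase that restrains L-type calcium channels. It read 9.41, 9.58 and 9.60 in NS cells at 0 h and 6.92, 6.91 and 7.03 at 8 h. With the p300 siRNA it read 9.54, 10.19 and 10.35 at 0 h and 6.72, 6.79 and 6.49 at 8 h. At 8 h every p300 siRNA array was below every NS array, and at 0 h the groups overlapped. The responses of -2.58 and -3.36 differed by -0.33, -0.74 and -1.28 in experiments 1 to 3, with a mean of -0.79 (SE 0.192, interval -1.20 to -0.37, limma adjusted p = 0.923). Its RGK relative Gem, also a calcium channel inhibitor, had responses of 0.20 and -0.18 and a difference of -0.38 (interval -0.62 to -0.14, adjusted p = 0.989).

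B3galt2 encodes a galactosyltransferase of glycan synthesis. It stood at 9.46, 9.44 and 9.49 in NS cells at 0 h and at 7.33, 7.62 and 7.70 at 8 h. In p300 siRNA cells it stood at 9.0, 9.08 and 9.33, and then at 6.31, 6.78 and 6.56. The p300 siRNA arrays were below the NS arrays at both times, with no overlap at either. Its responses were -1.91 and -2.59, and the difference was -0.56, -0.49 and -0.98 in experiments 1 to 3, with a mean of -0.68 (SE 0.135, interval -0.96 to -0.39, unadjusted p = 0.000164, adjusted p = 0.902).

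Of the 8 largest rises, 5 were equal within the margin and 3 were not. Pmaip1, the p53-induced BH3-only death gene also called Noxa, read 9.04, 8.91 and 8.87 in NS cells at 0 h and 11.09, 11.08 and 10.66 at 8 h. In p300 siRNA cells it read 9.39, 8.94 and 8.61 at 0 h and 11.33, 10.78 and 10.91 at 8 h, so that the siRNA groups overlapped at both times. Its responses of 2.00 and 2.03 differed by 0.02 (interval -0.31 to 0.36). Ppp2r2c, which encodes a B-type subunit of the phosphatase PP2A, had 2.05 and 1.94 (interval -0.34 to 0.13). Il1rl2, the interleukin 36 receptor, had 1.59 and 1.61 (interval -0.31 to 0.35). Cib2, which encodes a calcium-binding protein, had 1.49 and 1.57, and Fam167a 1.54 and 1.62. These were the 5 equal ones.

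Abcb1b, a drug efflux pump that carries doxorubicin, had responses of 1.57 and 1.75, and the difference of 0.19 (interval -0.15 to 0.53) was not bounded by the margin. The AP-1 subunit gene Fosl1 had 1.45 and 1.69 (interval of the difference -0.10 to 0.59), and Cfap141 had 1.55 and 1.80 (-0.15 to 0.65). For Cfap141 the 3 experiments gave 0.28, -0.37 and 0.84, which shows how far single experiments departed from one another. Among equal rises the narrowest intervals were those of the vitamin transporter gene Slc5a6 (1.15 and 1.17), the adhesion genes Icam1 (1.07 and 0.96) and Nectin1 (1.51 and 1.46), and Fam83h (1.32 and 1.22).

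**Figure D2:**
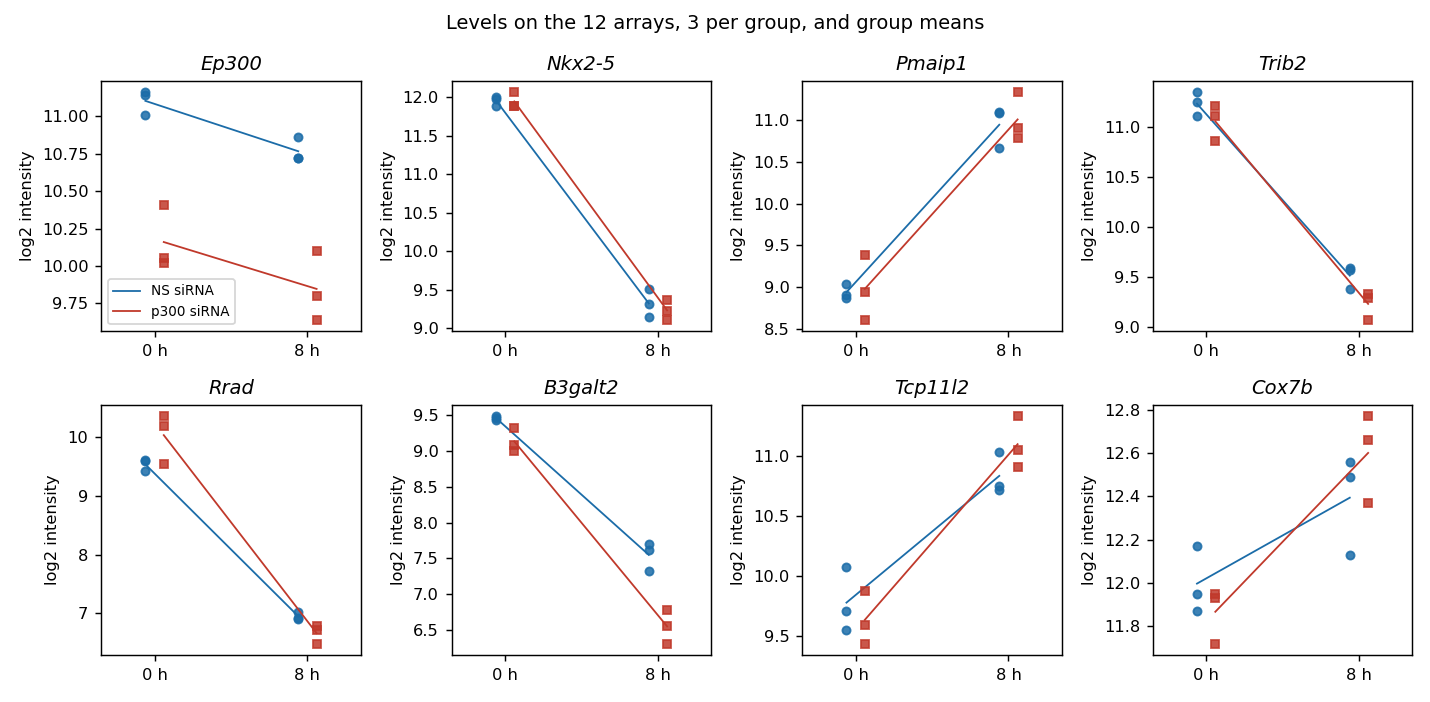
Log2 intensity of 8 genes on the 12 arrays at 0 h and 8 h, with NS siRNA in blue circles, p300 siRNA in red squares and lines joining group means; each panel has its own vertical range. Parallel lines in Ep300, Nkx2-5, Pmaip1 and Trib2 mark responses equal within the margin, and the lines of Rrad, B3galt2, Tcp11l2 and Cox7b are less parallel.

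The genes of smallest p in each direction are described next. None was called, and a ranking of all genes has top places even where no response differs. On the more positive side they were Uqcrb, Tcp11l2, Cox7b, Tbpl1 and Stmn1, each with a limma adjusted p of 0.902. Uqcrb, a subunit of respiratory complex III, read 12.96, 12.99 and 13.05 at 0 h and 13.01, 13.02 and 13.18 at 8 h in NS cells. With the p300 siRNA it read 12.80, 12.86 and 12.93 at 0 h and 13.12, 13.21 and 13.26 at 8 h. The p300 siRNA arrays were all below the NS arrays at 0 h and overlapped them at 8 h. The responses were 0.07 and 0.33, and the difference of 0.26 (interval 0.15 to 0.36, unadjusted p = 0.000112) was inside the margin, which makes Uqcrb equal by the rule used here.

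Cox7b, a subunit of cytochrome c oxidase, had responses of 0.26, 0.54 and 0.39 in NS cells and of 0.65, 0.74 and 0.82 in p300 siRNA cells. Every p300 siRNA response exceeded every NS response, with a mean difference of 0.34 (interval 0.18 to 0.50). A ranking by p favours such a separation, and how many of all genes have it was not counted. Tcp11l2 was the drug-responding gene on this side: it rose by 1.20, 1.01 and 0.95 in NS cells and by 1.47, 1.45 and 1.44 in p300 siRNA cells (difference 0.40, interval 0.21 to 0.59). Stmn1, which encodes the microtubule-destabilising stathmin, had 0.29 and 0.58. Tbpl1, a relative of the TATA-binding protein, had -0.15 and 0.21.

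On the more negative side the smallest p belonged to B3galt2, Ctdsp1, Cyp3a9, Lgals3bp and Or52n1, again each with an adjusted p of 0.902. Ctdsp1, a small phosphatase of the RNA polymerase II tail, had responses of -0.63, -0.43 and -0.44 in NS cells and of -0.99, -0.84 and -0.94 in p300 siRNA cells. Here too the 3 responses of each kind did not overlap, which the ranking by p again favours. The mean difference was -0.43 (interval -0.62 to -0.24). Cyp3a9 lay near the dim end of the array: NS cells read 5.84, 5.69 and 6.05 at 0 h and 6.31, 6.60 and 6.47 at 8 h, while p300 siRNA cells read 5.71, 5.85 and 5.67 and then 5.78, 5.61 and 5.50. The odorant receptor gene Or52n1 was as dim, between 5.38 and 5.87 on all arrays. Lgals3bp, a secreted glycoprotein gene also known as an interferon-responsive gene, had responses of 0.11 and -0.08.

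**Figure D3:**
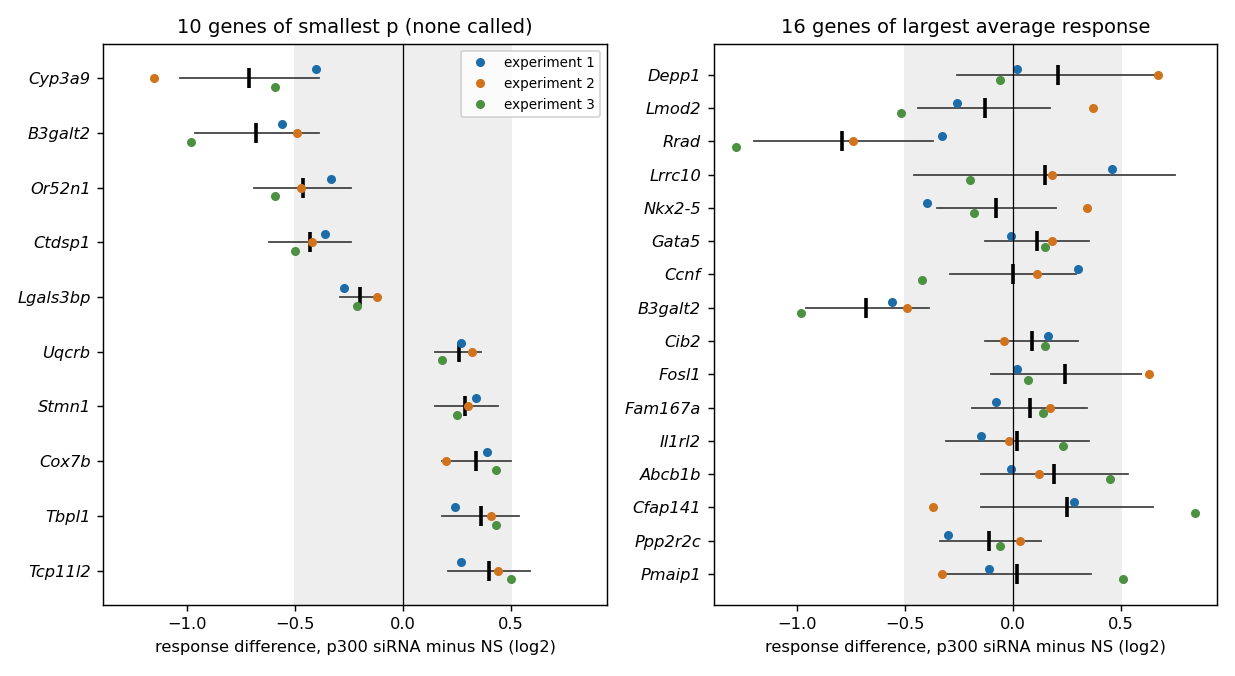
Response difference (p300 siRNA minus NS, log2) of the 10 genes of smallest p on the left and of the 16 genes of largest average response on the right; coloured points are experiments 1 to 3, black ticks the estimate, horizontal lines the 95% interval and the grey band the margin of 0.5. For the genes on the left the 3 experiments share a sign, as a ranking by p favours, whereas on the right several genes, such as Nkx2-5 and Cfap141, have experiments on both sides of 0.

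Of the 263 drug-responding genes, other members of the gene lists at an unadjusted p under 0.05 pointed in both directions, and 5 examples follow. Larger rises were estimated for Egr2, an immediate early factor (1.06 in NS and 1.48 in p300 siRNA cells), and the heat shock gene Hspa2 (1.30 and 1.65). Falls were estimated as deeper for Dusp1, a MAP kinase phosphatase (-0.92 and -1.22), and Cpt1a, the gate of fatty acid import into mitochondria (-0.92 and -1.19). The fall of Hey2, a Notch target and ventricular factor, was estimated as shallower (-1.32 and -1.05). None of the 5 was called, and each interval excluded 0 but reached into the margin.

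Gene lists of 35 pathways and 6 cell types were then described by their counts and medians. In each, 0 members were called in either direction, as over all genes. Median response differences lay between -0.07 and 0.12 for 34 of the 35 pathway lists, and the exception was the interferon response list. Targets of p53, the factor that p300 acetylates in damaged cells, had median responses of 0.42 in NS and 0.41 in p300 siRNA cells (23 measured, median difference 0.01), and 21 of 23 were equal within the margin. The margin of 0.5 is larger than these median responses, so that count alone does not show that the responses were kept. The same limit holds for the equal counts of other lists with small responses. The members of largest difference were Sesn1 (-0.99 and -0.69) and Tigar (0.00 and 0.26), neither called. Cardiac transcription factors, among them partners of p300, had median responses of -0.70 and -0.61 (22 measured, median difference 0.02), with 19 equal. Tbx5 (-1.23 and -0.95) and Hand2 (-0.77 and -0.49) were estimated to fall less with the p300 siRNA, with intervals of -0.01 to 0.58 and 0.05 to 0.52.

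Sarcomere genes (21 measured) had a median difference of 0.05 with 20 equal, calcium handling genes (23) 0.00 with 19 equal, and the acetyltransferases and their partners (16) -0.03 with all 16 equal. Genes of cell cycle and mitosis (33) had median responses of -0.35 and -0.36, with 29 equal. Within that list Pcna, the sliding clamp of DNA replication, had responses of 0.45 and 0.75, a difference of 0.30 (interval 0.12 to 0.48) that was 0.25, 0.32 and 0.32 in experiments 1 to 3. Among death genes, Bak1 had -0.23 and -0.51 (interval of the difference -0.45 to -0.11), and Bnip3, a mitochondrial death and mitophagy gene, had 0.48 and 0.65. The BCL2 family and caspase list as a whole had a median difference of -0.03, with 28 of 30 equal.

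Oxidative phosphorylation genes leaned towards more positive responses with the p300 siRNA. The median response of 29 nuclear-encoded members was 0.19 in NS and 0.28 in p300 siRNA cells. The response difference had a median of 0.08, against 0.00 over all genes, and was above 0 for 24 of 29, against 50.7% of all genes. Medians by experiment were 0.07, 0.16 and -0.01, so experiment 3 did not show it. The largest difference, ahead of that of Cox7b, was that of Ndufa1, a subunit of complex I, which had responses of 0.61 and 0.99 (difference 0.38, interval 0.13 to 0.63; 0.30, 0.31 and 0.53 by experiment). FOXO factors and targets had a median difference of 0.12, with 16 of 18 above 0, and medians of -0.04, 0.11 and 0.24 in experiments 1 to 3.

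**Figure D4:**
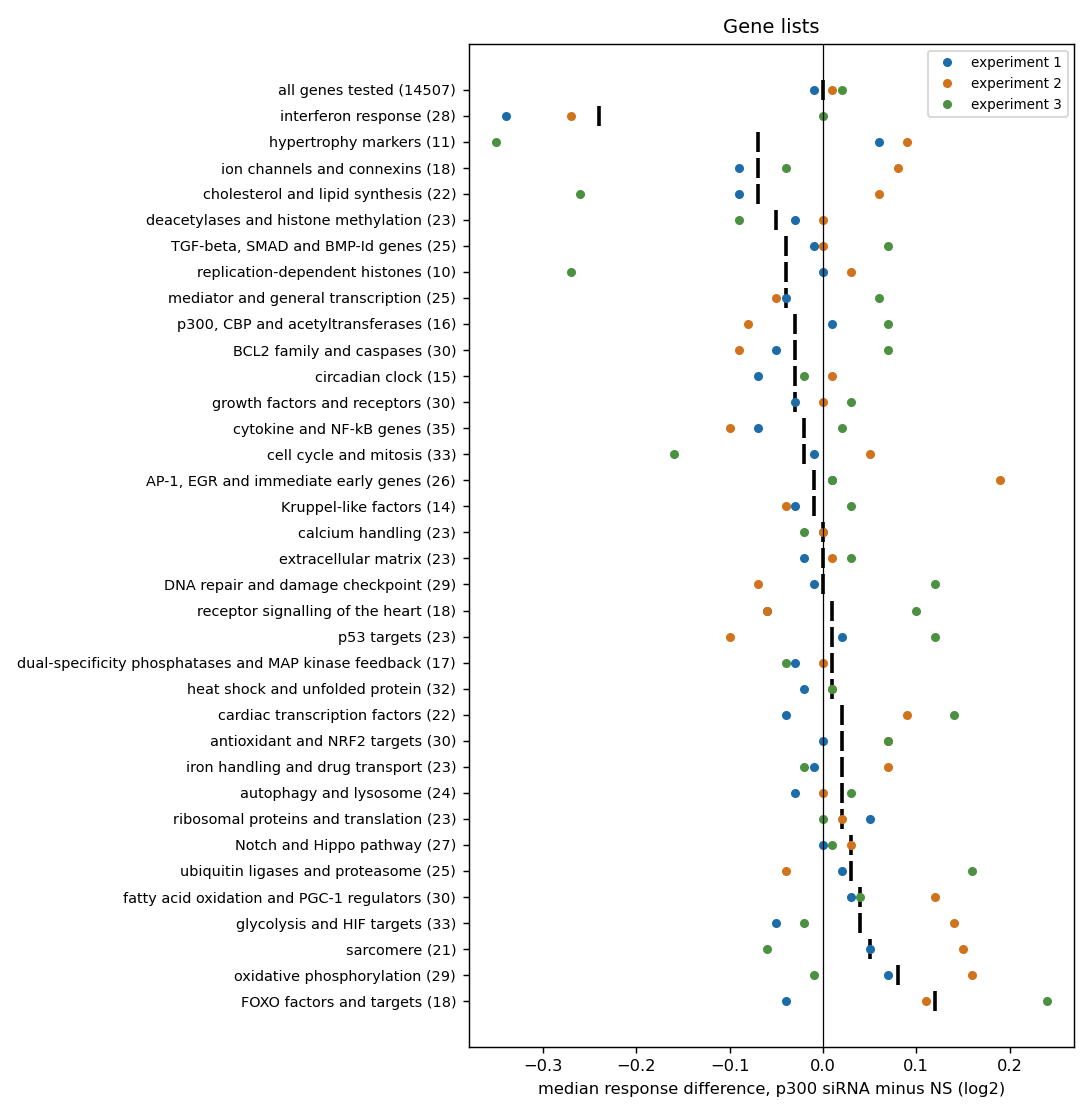
Median response difference (p300 siRNA minus NS, log2) of each pathway list, with the number of measured genes in brackets and all genes tested at the top; black ticks are medians of the estimates and coloured points the medians within experiments 1 to 3. The interferon response list stands at -0.24, with experiment 3 at 0.00, and the other 34 lists lie between -0.07 and 0.12.

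Interferon response genes were the list with the most negative median. These genes are switched on by interferons through Stat and Irf factors, and p300 is a coactivator of both kinds. The list has 28 measured members, of which 0 were called. The median drug response was 0.23 in NS cells and 0.01 in p300 siRNA cells, and the median response difference was -0.24, against 0.00 over all genes. Of the 28, 27 had an estimate below 0, 9 had an unadjusted p under 0.05 (4.4% of all genes had), and 13 (46.4%) were equal within the margin, against 93.3% of all genes. The median was -0.34 in experiment 1, -0.27 in experiment 2 and 0.00 in experiment 3. Estimates below 0 were found for 28 members in experiment 1, for 25 in experiment 2 and for 13 in experiment 3. Genes of such a list can vary together, so the 28 are not 28 separate observations, and an earlier analysis of these data was known when the list was described.

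Irf7, the transcription factor that amplifies the interferon response, had the smallest p of the list. It read 11.04, 11.80 and 11.85 in NS cells at 0 h and 11.66, 12.36 and 12.29 at 8 h. In p300 siRNA cells it read 11.26, 12.07 and 12.19 at 0 h and 11.41, 12.35 and 12.34 at 8 h. Its responses were 0.62, 0.56 and 0.44 in NS cells and 0.15, 0.27 and 0.15 in p300 siRNA cells, with no overlap, as a choice by smallest p favours. The mean difference was -0.35 (SE 0.0819, interval -0.52 to -0.17, unadjusted p = 0.000721, adjusted p = 0.902). The ubiquitin-like Isg15 had 0.48, 0.36 and 0.01 in NS cells and -0.16, 0.03 and -0.11 in p300 siRNA cells (difference -0.36, interval -0.63 to -0.09). Here the NS response was the higher in every experiment, but experiment 3 contributed only -0.12.

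The antiviral GTPase gene Mx1 and the antiviral enzyme gene Rsad2 had the largest estimates. Mx1 responded by 0.70, 0.83 and -0.09 in NS cells and by -0.23, 0.25 and -0.03 in p300 siRNA cells (difference -0.48, interval -0.91 to -0.05). Rsad2 responded by 0.34, 0.72 and -0.25 in NS cells and by -0.23, -0.32 and -0.07 in p300 siRNA cells (difference -0.47, interval -0.86 to -0.09). In experiment 3 the NS responses of both were below 0, and their differences there were 0.06 and 0.19. Oas1a, a sensor of double-stranded RNA, had -0.32 (-0.50, -0.25 and -0.22 by experiment), and Psmb10, a subunit of the immunoproteasome, had -0.27 (-0.25, -0.14 and -0.41). Slfn4 and Herc6, which are known as interferon-inducible but are not on the list, had responses of 0.68 and -0.18 and of 0.78 and 0.23. Irf7, Isg15, Oas1a, Psmb10, Slfn4 and Herc6 were chosen after their values were seen.

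A negative response difference can stand for a lower level at 8 h or a higher level at 0 h in p300 siRNA cells. For the interferon list the median difference between the siRNAs (p300 siRNA minus NS) was 0.18 at 0 h, above 0 for 24 of 28, and -0.05 at 8 h, above 0 for 10 of 28. Isg15 was 0.50 higher with the p300 siRNA at 0 h (limma adjusted p = 0.00757) and Irf7 0.27 higher (adjusted p = 0.0193). At 8 h the differences were 0.14 and -0.07. Cxcl10 and Cxcl11, chemokine genes of the same list, were instead lower at 0 h by 0.53 and 0.89 on the log2 scale. Markers of macrophages and leukocytes, cells that can both make and answer interferon, had a median difference between the siRNAs of -0.32 at 0 h and -0.34 at 8 h (14 measured, 6 of them above the median gene level), and a median response difference of -0.02. Their mean level per array ranged from 8.87 to 9.17 in NS cells and from 8.48 to 8.81 in p300 siRNA cells. Fibroblast markers were lower as well, with medians of -0.15 at 0 h and -0.16 at 8 h. Their mean level was 10.94 to 11.08 in NS cells and 10.72 to 10.87 in p300 siRNA cells. Endothelial markers had medians of -0.14 and -0.11, and cardiac myocyte markers of -0.02 and -0.04. In bulk RNA, fewer cells of a type and less RNA per cell cannot be told apart. The part of any of these cells in the interferon values was not tested.

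**Figure D5:**
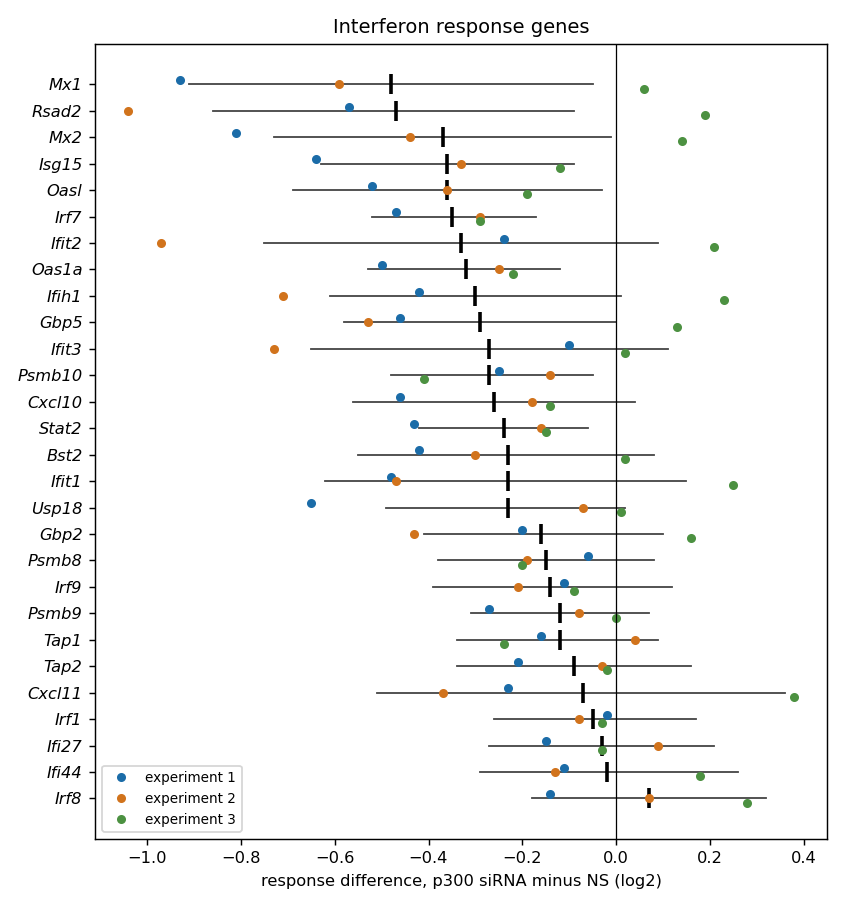
Response difference (p300 siRNA minus NS, log2) of the 28 measured interferon response genes, ordered by estimate; coloured points are experiments 1 to 3, black ticks the estimate and lines the 95% interval. All 28 points of experiment 1 and 25 of experiment 2 lie below 0, against 13 of experiment 3.

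The promoters of this list are shown because most of its members share the sign of their difference in experiments 1 and 2 and genes of this kind are known for a shared promoter element. The 250 bases before the start site were searched on both strands for GAAA followed after any 2 bases by GAAA (on the opposite strand TTTC, any 2 bases and TTTC), with overlapping matches allowed. This is part of the interferon-stimulated response element bound by Irf factors, and the search was chosen after the data were seen. Of 23 list members with a promoter in the RefSeq table (rat assembly GRCr8), 14 (60.9%) held it, against 371 of 11951 promoters of measured genes (3.1%). Shown 5′ to 3′ in the direction of the gene, with the matches in capitals, are Irf7 (chr1:205800024-205800273, minus strand), Oas1a (chr12:41330216-41330465, plus strand, with overlapping matches) and Psmb10 (chr19:50743293-50743542, minus strand).
Irf7: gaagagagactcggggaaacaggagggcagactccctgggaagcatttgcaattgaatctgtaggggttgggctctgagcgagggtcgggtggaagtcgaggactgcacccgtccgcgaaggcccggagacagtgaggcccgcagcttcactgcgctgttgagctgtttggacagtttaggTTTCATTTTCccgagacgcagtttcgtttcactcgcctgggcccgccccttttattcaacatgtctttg
Oas1a: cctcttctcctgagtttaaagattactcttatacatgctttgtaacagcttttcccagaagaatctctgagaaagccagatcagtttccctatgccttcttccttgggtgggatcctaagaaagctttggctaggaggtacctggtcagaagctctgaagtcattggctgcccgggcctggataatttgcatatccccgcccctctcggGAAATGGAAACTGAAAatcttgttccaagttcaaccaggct
Psmb10: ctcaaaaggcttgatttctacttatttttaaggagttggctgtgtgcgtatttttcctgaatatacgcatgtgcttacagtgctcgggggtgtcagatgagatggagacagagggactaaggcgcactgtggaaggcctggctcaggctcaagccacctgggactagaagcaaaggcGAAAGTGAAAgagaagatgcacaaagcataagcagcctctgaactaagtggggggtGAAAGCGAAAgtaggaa
In Irf7 the match stands on the strand opposite the gene. The median response difference was -0.26 for the 14 genes with a match and -0.14 for the 9 without, and Mx1, which has the largest estimate, is among those without a match in this window. Since the list holds genes of a kind known for this element, its high share was likely beforehand and is not a result about p300. A match is a description of the letters, not a shown binding site. The other motifs that had been planned for called genes could not be described, because 0 genes were called.

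The response difference is also the change over 8 h in the gap between the p300 siRNA and NS cells. Genes with such a gap were picked by its average over both times (adjusted p under 0.05 and at least 0.5 log2), which is independent of the response difference in this layout. They number 81 (0.558% of genes tested), 73 lower and 8 higher with the p300 siRNA. Markers of macrophages and leukocytes moved with this gap, with the median of -0.32 at 0 h and -0.34 at 8 h given above, and 2 of those 14 markers, Itgam and Mrc1, are among the 73. Other leukocyte genes outside the marker list are among the 73 as well, such as Itgb2, Cd53, Fcgr2b, Clec7a and Trem1. The count of 2 is therefore not a count of all such genes. Fibroblast and endothelial markers had smaller negative medians, also given above. The part of any of these cells in the gap was not tested. By adjusted p alone, with no minimum size, 1381 genes (9.52%) passed, or 181 (1.25%) without the block. For the 73 lower genes the gap had a median of -0.62 at 0 h and of -0.62 at 8 h. The gap was wider at 8 h for 31 and narrower for 42, and 47 of the 73 (64.4%) were equal within the margin, against 93.3% of all genes. The median response difference was -0.10, 0.06 and 0.14 in experiments 1 to 3. Chi3l1, a secreted chitinase-like protein of inflamed tissue, was lower by 1.21 at 0 h and by 1.05 at 8 h on the log2 scale. For the secreted phospholipase gene Pla2g2a the gap was -1.10 and -0.96, and for the matrix protease gene Mmp9 it was -0.84 and -0.77.

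The 8 higher genes were Myh3, Prss3bl1, Herc6, Nnat, H19, Ina, Mb and Cox6b2. Their median gap was 0.72 at 0 h and 0.52 at 8 h, it was narrower at 8 h for 7 of the 8, and 2 of the 8 (25%) were equal within the margin. Experiment 3 alone narrowed the gap of Myh3 (response difference 0.09, 0.45 and -1.72 by experiment) and of Prss3bl1 (0.15, 0.38 and -1.41). For Mb the response difference was only -0.03. Over the 8 genes the median response difference was -0.25, with experiment medians of -0.17, 0.06 and -0.14, so experiment 2 ran the other way. Nnat, an imprinted proteolipid gene, was the most regular of them. It read 10.82, 10.82 and 10.74 in NS cells at 0 h and 11.54, 11.52 and 11.39 at 8 h. In p300 siRNA cells it read 11.45, 11.72 and 11.51 and then 11.83, 12.07 and 11.89. It was higher with the siRNA on every array of its time, and its rise was 0.72, 0.71 and 0.64 without against 0.38, 0.35 and 0.39 with the p300 siRNA (difference -0.32, interval -0.51 to -0.13, unadjusted p = 0.00256, limma adjusted p = 0.989). H19, an imprinted noncoding RNA, had gaps of 0.67 and 0.47, and Mb, the oxygen store of muscle, had 0.55 and 0.52.

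The gap between the siRNAs was not alike in the 3 experiments for every gene. Gnai2, which encodes an inhibitory G protein subunit, read 13.35, 13.39 and 13.38 in NS cells at 0 h, and 13.34, 11.72 and 11.84 in p300 siRNA cells. At 8 h it read 13.44, 13.43 and 13.44, and 13.43, 11.99 and 12.08. In experiment 1 the p300 siRNA arrays thus matched the NS arrays, while in experiments 2 and 3 they were well below. Its response difference was -0.01, 0.23 and 0.18. Without experiment 1 the p300 siRNA changed 143 genes by the same rule, against 81 with all arrays, and the response difference again called 0 genes. The genes of this paragraph and the higher and lower examples above were picked after their values were seen.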

How the data were processed

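RNA of the 12 cultures was hybridised to Affymetrix whole-transcript arrays. Each deposited value is an intensity, linear and between 8.05 and 25315, made with Affymetrix Expression Console 1.1 and RMA per the submitters' processing notes. How they became linear is not given in the sources used here, and log2 was taken. Of 29214 probe sets, 15310 had 1 gene symbol, 323 several and 13581 none, and only the first kind was used. For 526 genes with several probe sets the brightest was taken, which left 14507 genes with no filter on level. Array medians were 7.73 to 7.80 (log2), and precision is limited by how many arrays there are.

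The model (lmFit and trended eBayes of limma 3.58.1 in R 4.3.3) had 4 group means and the experiment as a block, with 6 residual degrees of freedom. Tests were two-sided, with Benjamini-Hochberg adjustment over all genes. The pairing comes from the replicate number, which the series' design ties to 3 experiments: each of the 12 arrays deviated most like an array of its own number. Scripts were tested on simulated data. Members and gene lists were chosen with earlier results of these data known.

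Named were Ep300, the 5 genes of smallest p in each direction, the 8 largest average rises and falls, up to 4 equal genes of narrowest interval in each direction of response and up to 2 members of each list by size. Others are stated as chosen after their values were seen. Alternatives were the model without the block or with a random block, the 3 differences alone, centring, quantile normalisation, no dim genes, probe set means, other variance priors, other thresholds and leaving out experiments or arrays. Figures used Python 3.11.15 and matplotlib 3.10.9.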

Additional observations from a re-analysis of the deposited data

Results flagged for a closer look

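In 3 of the genes named, every experiment had a drug response of one sign in NS cells and of the other sign in p300 siRNA cells. Across all 14507 genes, 128 had this pattern. The difference was tested by limma in each and did not pass.

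For the calcium channel inhibitor gene Gem the responses were 0.14, 0.22 and 0.24 in NS cells and -0.03, -0.20 and -0.32 in p300 siRNA cells, a response difference of -0.38 (limma adjusted p = 0.989). For Lgals3bp they were 0.16, 0.09 and 0.10 against -0.11, -0.03 and -0.11, a difference of -0.20 (limma adjusted p = 0.902). For Tbpl1 they were -0.12, -0.18 and -0.13 against 0.12, 0.23 and 0.30, a difference of 0.36 (limma adjusted p = 0.902).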

How the results depend on the processing

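The response difference called 0 genes in each direction in the main model and in all 24 refits, with smallest adjusted p-values between 0.0837 (without p300 siRNA 0 h replicate 1) and 1. Among the 108 named genes, 0 of 2587 values over the alternatives were called and 0 changed sign by more than 1 SD. The second count was largely fixed beforehand. Leaving out 1 of 3 experiments moves a mean by less than 1 SD of the 3 values, and several refits keep the estimate. Some signs did change: estimates ranged from -0.43 to 0.23 for Mdm4, from -0.12 to 0.52 for Lrrc10 and from -0.29 to 0.08 for Nkx2-5. Without the replicate block, 128 drug-responding genes were equal within the margin in place of 205, and 46 genes were changed by the p300 siRNA in place of 81. Drug-responding genes numbered 1932 at an average response of at least 0.5, of which 1667 were equal, and 44 at 1.5, of which 32 were equal. With a margin of 0.3, 49 of the 263 were equal. Leaving out an experiment or an array gave 243 to 296 drug-responding genes, 155 to 207 equal ones, a signed median of -0.001 to 0.095, and 62 to 143 genes changed by the p300 siRNA, the most without replicate 1. The interferon median ranged from -0.34 to -0.14 over the alternatives, that of oxidative phosphorylation from 0.02 to 0.12 and that of FOXO genes from 0.03 to 0.14. With 3 experiments, even estimates as large as that of Slfn4 (-0.86, limma adjusted p = 0.902) did not pass.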
